A study of Mus musculus with 2 samples.

Results

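The 40 genes described here encode peroxins, the proteins that build peroxisomes, together with the oxidases, fatty acid enzymes and membrane proteins that peroxisomes carry. They were chosen by gene symbol, as rows of both gene tables whose identifier carries a member's symbol in the GENCODE mouse annotation, and all 40 were found among 43346 gene rows. The rule that picks them uses no measured value, though the set of symbols was drawn up with earlier results of these data known. Polyadenylated RNA came from the kidney of 1 female mouse of the inbred C57BL/6J strain, an adult 10 weeks old, and the labels name no treatment. The study has 1 group: the same tissue sample, biological replicate 1, gave the 2 sequenced libraries. They are called library 2 and library 1 after their technical replicate numbers. Every SD below is between these 2 libraries (n = 2), so it measures technical spread and cannot speak to other mice.

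Peroxisomes are small organelles bounded by a single membrane. Their oxidases pass electrons to oxygen and make hydrogen peroxide, which catalase breaks down in the same compartment. They shorten very long and branched fatty acids that mitochondria do not take up directly, and they oxidise some D-amino acids and hydroxy acids. Matrix proteins are made in the cytosol and imported folded: most carry a signal at the carboxyl end, classically serine-lysine-leucine, that the receptor Pex5 binds, and a few carry a signal near the start that Pex7 binds. In the kidney, peroxisomes are most numerous in the cells of the proximal tubule.

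Library 2 held 20720537 expected counts (estimated reads per gene) and library 1 held 28263730. Mitochondrial genes, counted with 11 nuclear copies, made up 36.5% of the TPM of library 2 and 74.5% of that of library 1. TPM is a length-corrected level, relative to all transcripts of a library, so every other gene had less room in library 1. Of 9 markers of the proximal tubule, 8 reached TPM 1 in both libraries, with summed levels of 4928 TPM in library 2, against 508 TPM in library 1. That sum rests largely on Miox, Slc34a1 and Aqp1, and the list did not move as 1. By the test described below, 5 of the 9 markers were called higher in library 2 (35.5% of all genes were). Another 2 were called higher in library 1 (24.9% of all genes). Slc5a12, 1 of these 2, was level in TPM (129 in library 2 and 128 in library 1). After removal of the GC trend described below, 2 of 8 markers were called higher in library 2 (11.2% of all genes). In library 1 it was 0 (10.6% of all genes). Markers of hepatocytes, another cell type rich in peroxisomes, summed to 63.8 TPM in library 2, against 10.7 TPM in library 1, and Alb, the defining one, stood at 7.05 TPM in library 2 and 3.55 in library 1. The sum of library 2 rests largely on Ttr, at 31.6 TPM there and 2.49 TPM in library 1. Of these 8 hepatocyte markers, 3 were under TPM 1 in both, and Ahsg and Cps1 were at 0 in library 2. Among the 6 tested, Ttr and Apoa2 were called higher in library 2 (35.5% of all genes were). Cps1 was called higher in library 1 (24.9% of all genes), so this list did not move as 1 either. The part of these cell types in the levels of the members was not tested. Within a library, fewer cells of a type and less RNA per cell cannot be told apart in whole kidney RNA. Both libraries came from the same tissue sample, so a gap between them compares libraries, not tissues.

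The coding ends of the members are shown because the last codons before the stop carry the import signal that Pex5 reads. Each line gives 30 bases of the coding strand from GENCODE M21 transcripts (GRCm38/mm10), with the last 3 codons before the stop in capitals.
Ehhadh: ttggcaggaccccatagcAGCAAACTGtga
Ech1: acaaaaagcatcaccttcTCCAAGCTCtga
Scp2: cagcttcagccgggcaaaGCTAAGCTGtga
Hao2: ccagacctgattcagttcTCCAGATTAtaa
Dao: ttgtccaggttgcctcccTCCCACCTCtga
Ddo: aggacccctgcttccttgTCGAAGCTGtag
Mlycd: gcccagttccagaacaacAGCAAACTCtag
Cat: atggctgcgaagggaaaaGCTAACCTGtaa
Acox2: ctgatgcaaagctggaaaCCCAAGCTGtga
Phyh: cttgtgaaaggagaaagaATAAACATTtga
Acaa1b: gctgcggtctttgaatacCCTGGGAACtga
Abcd3: acagaagatacagttgagTTCGGATCAtag
On the minus strand lie Ehhadh at chr16:21762084-21762113, Scp2 at chr4:108044750-108044779, Hao2 at chr3:98875309-98875338, Cat at chr2:103454756-103454785, Acox2 at chr14:8225766-8225795, Acaa1b at chr9:119148338-119148367 and Abcd3 at chr3:121760232-121760261. On the plus strand lie Ech1 at chr7:28832079-28832108, Dao at chr5:114024877-114024906, Ddo at chr10:40648012-40648041, Mlycd at chr8:119410492-119410521 and Phyh at chr2:4938331-4938360.

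A codon set for the classical signal was searched at this position on the coding strand. The first codon could be TCN or AGC or AGT or GCN or TGC or TGT, the next AAA or AAG or CGN or AGA or AGG or CAC or CAT, and the last CTN or TTA or TTG or ATG. It was present in 13 of the 22 matrix enzymes among the members (Ehhadh, Hsd17b4, Scp2, Ech1, Decr2, Hao2, Dao, Ddo, Pipox, Crot, Acot4, Acot8 and Mlycd) and in 0 of the 18 peroxins and membrane proteins. Among all 21059 genes with a complete coding transcript, 113 had it (0.537%). The 9 matrix enzymes without it included Cat, Phyh, Acox2 and both thiolases, of which Phyh and the thiolases are known cargo of Pex7. The absence of a match says only that these letters are not at that position. In library 2 the median level was 126 TPM for matrix enzymes with the codon set and 82.1 TPM for those without it, and in library 1 it was 19.9 and 12.1 TPM for the same classes.

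Nearly all members were present in this kidney, and the peroxins stood below the other members in median level. In both libraries 28 of the 40 reached TPM 1, another 10 did so only in library 2, and Abcd2 and Hao1 did so in neither. Over all 43346 genes, 9379 reached TPM 1 in both libraries, 3844 only in library 2 and 153 only in library 1. In TPM rescaled without mitochondrial genes and their copies, 36 reached TPM 1 in both libraries, and only Pex6 and Pex16 did so in library 2 alone. The median member had 44.3 TPM in library 2, against 10.7 TPM in library 1. For comparison, the 9379 genes at TPM 1 or more in both libraries had medians of 17.2 TPM in library 2, against 6.88 TPM in library 1. The 40 members summed to 5215 TPM in library 2, against 2076 TPM in library 1, which is 0.522% of library 2 and 0.208% of library 1. With mitochondrial genes and their copies left out of the total, the sums came to 0.822% in library 2 and 0.815% in library 1, so the joint share of the members was nearly the same in both.

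**Figure D1:**
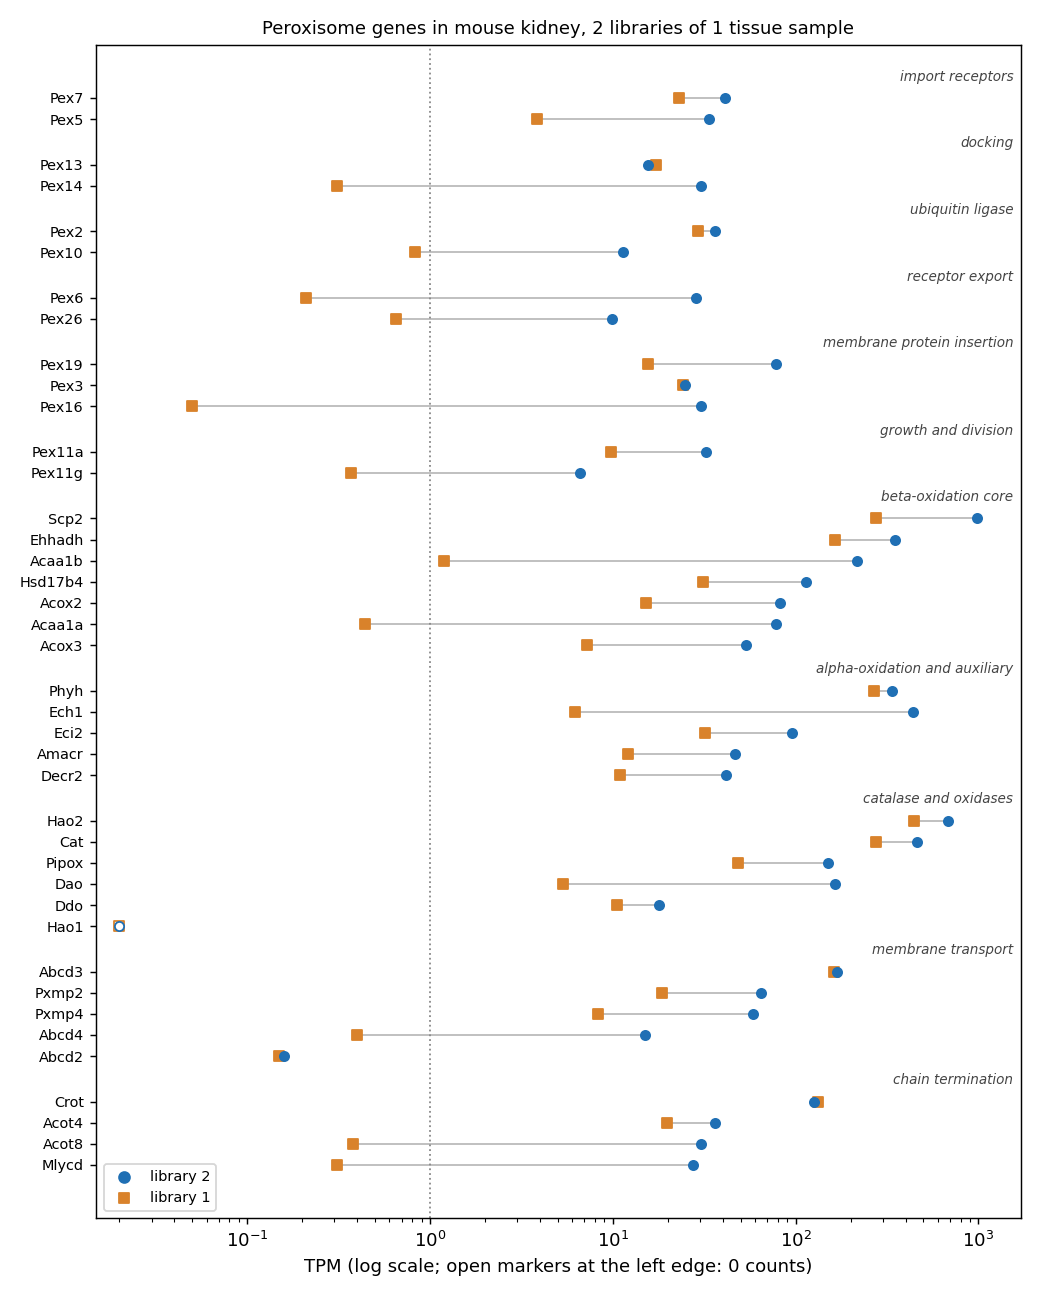
Level of each of the 40 peroxisome genes in TPM on a log axis, with library 2 as circles and library 1 as squares, grouped by role and joined by a line for each gene; the dotted line marks TPM 1. Pex3, Pex13, Abcd3 and Crot have nearly overlapping markers, while Pex16, Pex6, Acaa1a and Mlycd drop below TPM 1 in library 1.

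The 13 peroxins had medians of 30.5 TPM in library 2 and 3.85 in library 1, while those of the other 27 members were 82.1 TPM in library 2 and 12.1 in library 1. They ran between 6.62 and 78.3 TPM in library 2 and between 0.05 and 29.3 TPM in library 1. All 13 reached TPM 1 in library 2, and 7 of them in library 1.

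Of the import receptors, Pex5, which binds the carboxyl-terminal signal, had 33.8 TPM in library 2, against 3.85 TPM in library 1. Pex7, the receptor for the signal near the start, had 41 TPM in library 2, against 22.9 TPM in library 1 (31.9 ± 12.7 TPM, SD, n = 2). Both receptors were lower in TPM in library 1, and the gap was wider for Pex5. The receptors dock at the membrane on Pex13 and Pex14, which bind each other. Pex13 had 15.6 TPM in library 2, against 17.3 TPM in library 1, while Pex14 had 30.5 TPM in library 2, against 0.31 TPM in library 1. The order of the docking partners was thus opposite in the 2 libraries.

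After cargo release, the ring-finger ubiquitin ligase that includes Pex2 and Pex10 marks the receptor, and an ATPase that includes Pex6, anchored by Pex26, pulls it out of the membrane. Pex2 had 36.1 TPM in library 2, against 29.3 TPM in library 1. Pex10 was lower, at 11.4 TPM in library 2 and 0.83 in library 1. Pex6 had 28.6 TPM in library 2 (1399 counts), against 0.21 TPM in library 1 (8 counts). Pex26 had 9.95 TPM in library 2, against 0.65 TPM in library 1. Among these genes only Pex2 passed TPM 1 in both libraries.

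Membrane proteins are inserted by Pex19, their cytosolic carrier, and by Pex3 and Pex16, the membrane anchors. Pex3 was nearly level, with 24.9 TPM in library 2, against 24.1 TPM in library 1 (24.5 ± 0.516 TPM, SD, n = 2). Pex16 had 30.5 TPM in library 2 (547 counts), against 0.05 TPM in library 1, where it rests on 1 count. Pex19 was the most abundant peroxin of library 2, with 78.3 TPM there and 15.6 TPM in library 1. Pex11a and Pex11g promote growth and division of the organelle. Pex11a had 32.2 TPM in library 2, against 9.83 TPM in library 1, and Pex11g had 6.62 TPM in library 2, against 0.37 TPM in library 1.

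The partners shown here, picked from those that parted between the libraries, also differ in base composition. Whether composition caused the gaps was not tested. For Pex13 and Pex14, and for Pex3 and Pex16, the 120 coding bases within 1 exon nearest the middle of the coding sequence are shown, with G and C in capitals (coding strand, GENCODE M21, GRCm38/mm10).
Pex13: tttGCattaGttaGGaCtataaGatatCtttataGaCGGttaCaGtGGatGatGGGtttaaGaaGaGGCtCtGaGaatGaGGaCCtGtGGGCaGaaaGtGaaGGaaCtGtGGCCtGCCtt
Pex14: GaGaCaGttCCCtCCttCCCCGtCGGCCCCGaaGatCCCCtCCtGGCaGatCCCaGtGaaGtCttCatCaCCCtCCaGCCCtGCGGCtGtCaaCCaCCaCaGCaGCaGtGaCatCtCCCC
Pex3: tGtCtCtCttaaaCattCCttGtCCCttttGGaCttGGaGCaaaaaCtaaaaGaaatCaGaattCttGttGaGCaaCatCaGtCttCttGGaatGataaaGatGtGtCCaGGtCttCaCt
Pex16: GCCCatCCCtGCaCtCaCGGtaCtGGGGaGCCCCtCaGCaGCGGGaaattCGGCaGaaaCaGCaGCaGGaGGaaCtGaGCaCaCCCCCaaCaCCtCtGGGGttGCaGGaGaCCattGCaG
The windows lie at chr11:23655560-23655679 (minus) for Pex13, chr4:148961675-148961794 (minus) for Pex14, chr10:13534718-13534837 (minus) for Pex3 and chr2:92378796-92378915 (plus) for Pex16. Their GC content was 43.3% in Pex13, 62.5% in Pex14, 37.5% in Pex3 and 61.7% in Pex16. Over the whole coding sequence it was 45.5% in Pex13, 58.7% in Pex14, 43.6% in Pex3 and 57.9% in Pex16.

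Beta-oxidation in peroxisomes starts with an acyl-CoA oxidase, continues with the multifunctional enzymes Ehhadh and Hsd17b4, and ends with a thiolase. Acox2, the oxidase of branched chains and bile acid intermediates, had 82.1 TPM in library 2, against 15.2 TPM in library 1. Acox3, a further branched-chain oxidase, had 53.7 TPM in library 2, against 7.27 TPM in library 1. Ehhadh, the L-bifunctional enzyme, was the more abundant multifunctional enzyme in both libraries, with 350 TPM in library 2, against 164 TPM in library 1. Hsd17b4, the D-bifunctional enzyme, had 114 TPM in library 2, against 31.3 TPM in library 1.

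Scp2, whose long form is the thiolase of branched chains and whose short form is a sterol carrier protein, had the highest level of all members in library 2, at 978 TPM, with 275 TPM in library 1. The straight-chain thiolases Acaa1a and Acaa1b had the widest gaps of the pathway. Acaa1b had 217 TPM in library 2, against 1.19 TPM in library 1, and Acaa1a had 77.8 TPM in library 2, against 0.44 TPM in library 1. The thiolase genes lie on chromosome 9 and their coding sequences, of 1275 bases each, differ at 44 bases (96.5% identity). Reads can therefore be split between them wrongly, but their sum showed the same gap, at 295 TPM in library 2 (7312 counts), against 1.63 TPM in library 1 (93 counts). Scp2 also shares 85.8% of its transcript, at 99.5% identity, with the pseudogene Scp2-ps2, which was given 30 TPM in library 2, against 1.14 TPM in library 1. Acaa1a, Acaa1b and Scp2 were the only 3 of 40 members whose most abundant transcript shared at least 50% of its length with another gene.

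Branched chains such as phytanic acid are first shortened by alpha-oxidation, for which Phyh is the hydroxylase. Phyh had 337 TPM in library 2, against 267 TPM in library 1 (302 ± 49.5 TPM, SD, n = 2). Amacr, the racemase that readies branched chains for oxidation, had 46.9 TPM in library 2, against 12.1 TPM in library 1. The auxiliary enzymes Ech1, Eci2 and Decr2 rearrange the double bonds of unsaturated chains. Ech1 had 441 TPM in library 2, against 6.18 TPM in library 1, the widest gap of this group. Eci2 had 96.1 TPM in library 2, against 32 TPM in library 1, and Decr2 had 41.7 TPM in library 2, against 11 TPM in library 1.

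Catalase and the oxidases ran from 0 to 680 TPM in library 2, and spanned the whole range of the members in library 1. Cat and Hao2 stood near the top in both libraries and Hao1 at the bottom. Cat, which breaks down hydrogen peroxide, had 461 TPM in library 2, against 277 TPM in library 1 (369 ± 131 TPM, SD, n = 2). Hao2, the oxidase of long-chain hydroxy acids, had 680 TPM in library 2, against 442 TPM in library 1 (561 ± 168 TPM, SD, n = 2), the highest level of any member in library 1. Its relative Hao1, the glycolate oxidase known from liver, had 0 counts in both libraries, which allows up to 3 counts in each. Thus Hao2 stood at the top of the members of library 1, while Hao1 was not detected at this depth in either library.

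Dao, the oxidase of neutral D-amino acids, had 165 TPM in library 2, against 5.37 TPM in library 1. Ddo, which acts on acidic D-amino acids, had 17.9 TPM in library 2, against 10.5 TPM in library 1. Pipox, which oxidises pipecolic acid and sarcosine, had 150 TPM in library 2, against 48.5 TPM in library 1. Dao therefore stood above Pipox in library 2 and below both Pipox and Ddo in library 1.

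Abcd3 carries branched and other fatty acyl-CoA into the organelle and was nearly level in TPM, with 169 TPM in library 2, against 163 TPM in library 1 (166 ± 3.82 TPM, SD, n = 2). Its relative Abcd2, a transporter of very long chains, was at 0.16 TPM in library 2, against 0.15 TPM in library 1, resting on 14 and 25 counts in those libraries. Abcd4, a family member whose protein is known from lysosomes, had 15 TPM in library 2, against 0.4 TPM in library 1. The membrane proteins Pxmp2, a channel-forming protein, and Pxmp4 had 64.5 and 58.3 TPM in library 2 and 18.6 and 8.29 TPM in library 1.

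Products leave the pathway as carnitine esters or free acids. Crot, the octanoyltransferase that makes carnitine esters, had 126 TPM in library 2, against 133 TPM in library 1 (129 ± 4.86 TPM, SD, n = 2). Acot4 and Acot8 are thioesterases that release free acids. Acot4 had 36.1 TPM in library 2, against 19.9 TPM in library 1, and Acot8 had 30.4 TPM in library 2, against 0.38 TPM in library 1. Mlycd, which removes the carboxyl group of malonyl-CoA, had 27.4 TPM in library 2, against 0.31 TPM in library 1. Before any rescaling, Pex13 and Crot were the only members whose TPM was lower in library 2. In TPM rescaled without mitochondrial genes and copies, Pex7, Pex2, Pex3, Ehhadh, Phyh, Cat, Hao2, Ddo, Abcd2, Abcd3 and Acot4 were lower there too. The remaining detected members were higher in library 2 on both scales.

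**Figure D2:**
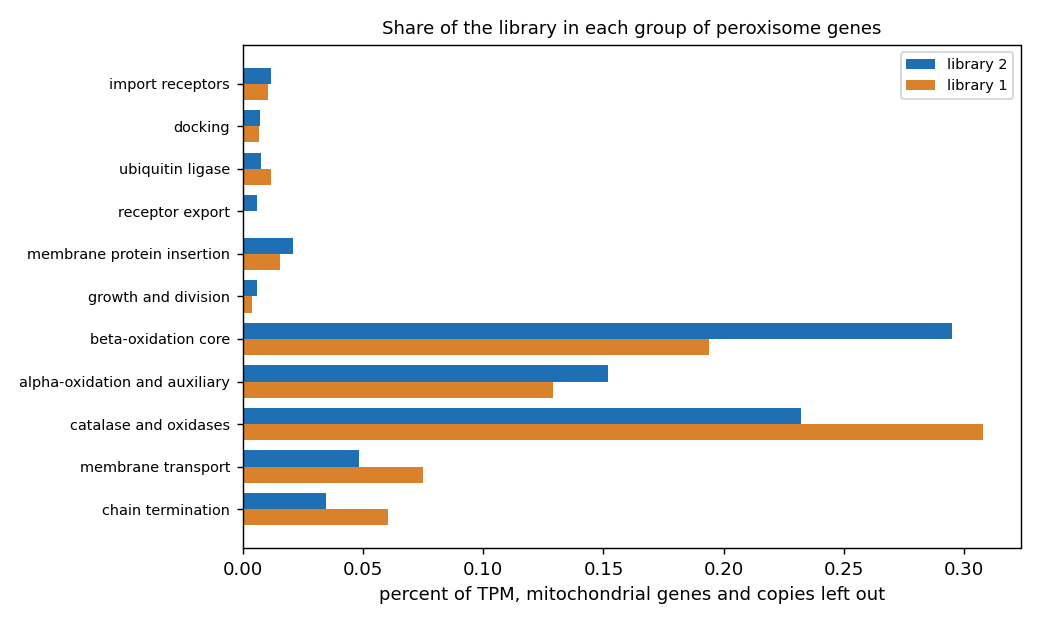
Summed level of each group of peroxisome genes as a percent of TPM with mitochondrial genes and their copies left out, with library 2 as the upper bar and library 1 as the lower bar of each pair. The beta-oxidation core takes 0.295% in library 2 and 0.194% in library 1, while catalase and the oxidases take 0.232% and 0.308% in those libraries.

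Ordering the members by the mean of both libraries put Scp2 first, then Hao2, Cat, Phyh, Ehhadh, Ech1 and Abcd3. The order within a library could differ: Ech1 ranked 4 in library 2 and 25 in library 1, and Scp2 ranked 1 in library 2 and 3 in library 1. Of the 38 neighbouring pairs in that order of the 39 detected members, only Hao2 over Cat and Abcd3 over Crot had a gap wider than the larger SD of the pair. In the remaining 36 the gap lay within that SD, which also holds the shift in TPM between the libraries. Such a pair can still keep its order in both libraries. Cat over Phyh did, with 461 and 337 TPM in library 2, and 277 and 267 TPM in library 1. Of 741 pairs of members, 561 (75.7%) stood in the same order in both libraries and 178 in the opposite order. Across the 39 detected members, which share the same libraries, Spearman's rho between library 2 and library 1 was 0.682.

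Differences between the libraries were then measured as log2 of library 2 over library 1 on TMM-scaled counts, a scaling that sets the typical gene near 0. TPM and this ratio have different zero points, so a gene whose TPM is somewhat higher in library 2 can have a negative ratio, as Cat did (-0.62). Calls needed an adjusted p under 0.05 and a ratio of at least 2-fold, from a two-sided exact binomial test and Benjamini-Hochberg adjustment over all 15553 genes with at least 10 counts. The test compares 2 libraries, not conditions, and accounts for counting error only. Of the 39 members tested, 23 were called (59%), against 60.5% of all genes tested. Another 16 were not called, although all 39 had an adjusted p under 0.05 in the exact test. By direction, 17 members were higher in library 2 (43.6%, against 35.5% of all genes) and 6 were higher in library 1 (15.4%, against 24.9%). The median log2 ratio was 0.59 over the members and 0.12 over all genes. The share of members called was near that of all genes.

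The 17 members called higher in library 2 were Pex5, Pex14, Pex10, Pex6, Pex26, Pex16, Pex11g, Acox2, Acox3, Acaa1a, Acaa1b, Ech1, Dao, Abcd4, Pxmp4, Acot8 and Mlycd. The widest gap was that of Pex16, which had 266-fold more scaled counts in library 2, with a 95% interval of 71.3 to 15779 that reflects its single count in library 1. Pex6 was 120-fold higher in library 2 (95% interval 64.5 to 296) and Acaa1b 69.3-fold (53.7 to 93). Ech1 was 34.3-fold higher in library 2, with the narrower interval of 29.5 to 40.3 that 7778 counts in library 2 and 165 in library 1 allow. The 6 members called higher in library 1 were Pex13, Pex3, Phyh, Abcd2, Abcd3 and Crot, with log2 ratios between -1.65 (Pex13) and -1.03 (Phyh). Abcd2 had the largest adjusted p of all 39 members, at 0.0119 (two-sided exact binomial test, Benjamini-Hochberg). Scaled by total expected counts, all log2 ratios shifted up by 0.90. Under that scaling 25 members were called higher in library 2 (background 49.2%) and 0 higher in library 1 (background 4.55%). With TMM scaling and no minimum ratio, 25 members were called higher in library 2 (background 44.3%) and 14 higher in library 1 (background 39.2%).

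The ratio of a member moved with the GC content of its most abundant transcript. Across the 36 tested members with such a value, Spearman's rho was 0.926 and Pearson's r was 0.898. Across 11092 genes with at least 100 counts, rho was 0.918. These are correlations across genes of the same 2 libraries, and genes are not independent replicates. The 7 members under 45% GC had a median log2 ratio of -1.29 (range -1.65 to -0.74), against -1.47 for all genes in that class. The 9 members from 45% to under 50% had a median of 0.28, against -0.50, and the 9 from 50% to under 55% had a median of 1.08, against 1.04. The 11 members at 55% or more had a median of 5.04 (range 1.76 to 8.06), against 3.80.

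**Figure D3:**
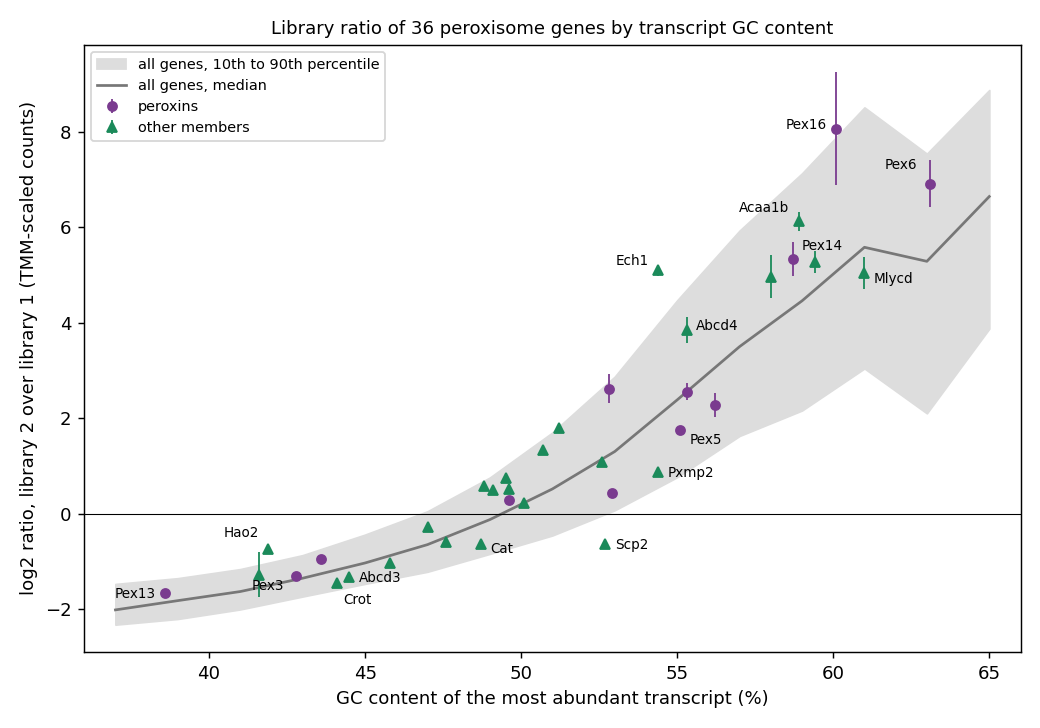
log2 ratio of library 2 over library 1 (TMM-scaled counts) against the GC content of the most abundant transcript in percent, for 36 peroxisome genes (circles for peroxins, triangles for others, bars for the counting error of the ratio), over the median and the 10th to 90th percentile of all genes in steps of GC content. The members climb with the median of all genes, with Ech1 well above the band and Scp2 well below it.

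Removing that trend, as fitted across all genes, left 8 of 36 members called, against 21.8% of all genes. The 6 members higher in library 2 (background 11.2%) were Pex16, Pex11g, Acox2, Acaa1b, Ech1 and Abcd4, each of which had been called in that direction before. The 2 higher in library 1 (background 10.6%) were Scp2 and Pxmp2, neither of which had been called before. Another 16 members lost their call. The SD of the log2 ratios was 2.64 over the 39 members before removal and 1.00 over the 36 after it. Ech1 kept a log2 ratio of 3.10 and Pex16 one of 3.07, while Pex6 moved to 0.73, Mlycd to -0.33 and Pex13 to 0.20. Each value used the GC content of 1 transcript per gene. Of these 8 genes, Scp2 (-1.83), Pxmp2 (-1.12), Pex16 and Acox2 had different leading transcripts in the 2 libraries.

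The transcript tables showed where such differences lay within a gene. Of the 31 members with 2 or more transcripts above 0, 12 had a different leading transcript in the 2 libraries: Pex2, Pex6, Pex26, Pex16, Pex19, Acox2, Acaa1a, Scp2, Eci2, Dao, Pxmp2 and Acot8. Among the 21 with at least 100 counts in each library it was 7. The same share over all genes was not measured, so these counts are not a trait of the members. Another 8 members, including Cat, Hao2, Ehhadh, Amacr, Ddo and Abcd3, had a single transcript above 0, so no split among transcripts enters their levels.

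In Scp2, the most abundant member by mean level, the leading transcript differed. The short transcript Scp2-202, of 772 bases with a coding sequence of 432 bases, had 542 TPM in library 2 (55.5% of the gene), against 0 TPM in library 1. The long transcript Scp2-201, of 2640 bases with a coding sequence of 1644 bases, had 193 TPM in library 2 (19.7%), against 218 TPM in library 1 (79.1%). The long transcript was thus nearly level in TPM, and in these estimates the higher TPM of the gene in library 2 came from short transcripts. Scp2-202 is also the transcript that shares most of its sequence with Scp2-ps2, so reads can be split wrongly between them. On TMM-scaled counts the gene was not higher in library 2 (log2 ratio -0.64), and Scp2-201 was lower there (-1.54). In counts, Scp2-202 had 5185 in library 2 and 0 in library 1, while Scp2-201 had 7773 in library 2 and 16444 in library 1. The GC content was 52.7% for Scp2-202 and 44.8% for Scp2-201.

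Pex19 showed a similar split. Pex19-201 (52.9% GC) had 58.8 TPM in library 2, against 0.06 TPM in library 1, while Pex19-202 (47% GC), with a shorter coding sequence, had 13.2 TPM in library 2, against 15 TPM in library 1. In Pxmp2 the coding transcript Pxmp2-201 held 95.2% of the gene in library 2 and 30.5% in library 1. A transcript annotated for nonsense-mediated decay, Pxmp2-204, held 4.75% in library 2 and 69.5% in library 1.

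Pex5 is known in a long and a short form, of which the long form also carries Pex7 and its cargo. Pex5-202, with 1809 coding bases, led in both libraries, at 68.5% of the gene in library 2 and 50.8% in library 1. The second transcript differed: Pex5-201, with 1920 coding bases, took 29.8% in library 2 and 0% in library 1, and Pex5-203, with 1899 coding bases, took 0% in library 2 and 49.2% in library 1. The GC content of these transcripts was nearly the same, at 55% for Pex5-201 and 54.5% for Pex5-203. These shares are estimates that divide reads between transcripts of a gene, and no error of a share was used here.

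**Figure D4:**
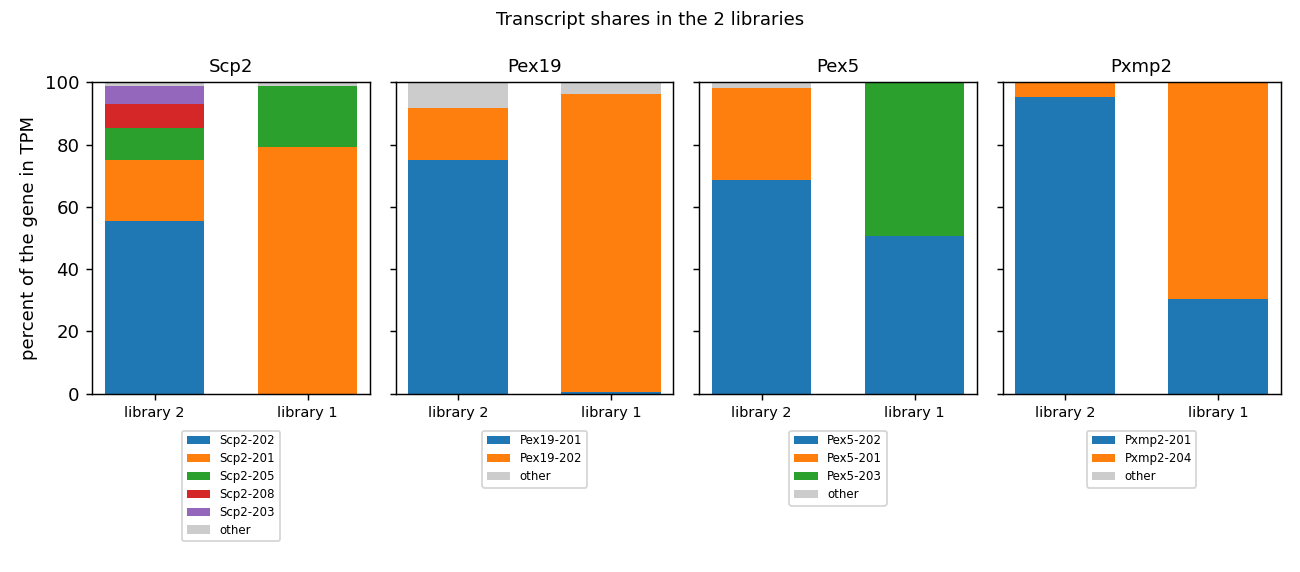
Share of each transcript in its gene, in percent of TPM, for Scp2, Pex19, Pex5 and Pxmp2, with library 2 as the left bar and library 1 as the right bar of each pair; grey stands for the remaining transcripts. Scp2-202 holds 55.5% of Scp2 in library 2 and none in library 1, and Pex19-201 holds 75% of Pex19 in library 2 and 0.41% in library 1.

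A further 46 genes outside the 40 members were measured, from lists of other peroxisome genes. Some genes of these lists are also, or mainly, known from other compartments. Of the 46 genes, 37 reached TPM 1 in both libraries and 5 only in library 2. Their medians were 44.4 TPM in library 2, against 20.5 TPM in library 1. The 4 under TPM 1 in both were Far2, Agxt, Uox and Acot5. Among the 42 tested, 11 calls pointed to library 2 (35.5% of all genes did) and 12 to library 1 (24.9% of all genes), and the genes had a median log2 ratio of -0.21 against 0.59 over the 39 members tested. With the GC trend removed, 2 calls among 41 tested pointed to library 2 (11.2% of all genes did) and 4 to library 1 (10.6%). The median was then -0.01 against 0.27 over the members. Far1, which makes the fatty alcohol of ether lipids, had 72 TPM in library 2, against 108 TPM in library 1. Prdx5, a peroxidase shared with mitochondria, had 1618 TPM in library 2, against 47 TPM in library 1, and the peroxidase Prdx1 had 863 and 1233 TPM in those libraries. Slc27a2, the very long chain acyl-CoA synthetase, had 1511 TPM in library 2, against 457 TPM in library 1. Mpv17l, a membrane protein, had 467 TPM in library 2, against 494 TPM in library 1.

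Many of the members are known targets of the nuclear receptor PPAR alpha in rodent liver. Of 15 genes of that axis, 10 reached TPM 1 in both libraries and 5 only in library 2. Acadm, Cyp4a14 and Cyp4a10, its most abundant genes here, had 759, 460 and 434 TPM in library 2, and 316, 273 and 265 TPM in library 1. Of the 15, 7 were called higher in library 2 (35.5% of all genes were) and 1 higher in library 1 (24.9% of all genes). With the GC trend removed, 3 calls among 14 tested pointed to library 2 (11.2% of all genes did) and 0 to library 1 (10.6%).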

How the data were processed

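Tables per gene and per transcript were analysed (mm10, annotation M4, per the text deposited with them). The sources used here name no aligner. Expected counts (estimated reads, not normalized), TPM (counts over effective length) and the percent of each transcript in its gene were deposited by the authors, per the file headers. Posterior means, and lower and upper credibility bounds of TPM, were deposited too. Symbols came from GENCODE M21 by identifier (42462 rows, 98%). For the ratios, expected counts were rounded and scaled by TMM (edgeR 4.0.16) over rows with at least 10 counts, with a prior count of 0.5. With 1 library on each side, a quasi-likelihood fit has no residual degrees of freedom, so the exact binomial test (scipy 1.17.1) was used on 15553 genes. Before use, this test was tested on simulated data. The GC value of a gene was that of its leading transcript, where this transcript's length lay within 10% of the reference transcript; Pex7, Acot4 and Dao had none. The GC trend was fitted by lowess (statsmodels 0.14.6, span 20%) to genes of 100 or more counts. Shared sequence was searched with blastn 2.17.0 at 95% identity. Alternatives were DESeq2 1.42.0 size factors, total counts with and without mitochondrial genes, other thresholds and prior counts, posterior mean counts, removal of the GC trend, and leaving out each library. Intervals cover counting error only. All 40 members could be named, and of other genes the 3 most abundant of each list and those under TPM 1 in both libraries; some of these are not described. Members and lists were chosen with earlier results of these data known.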

Additional observations from a re-analysis of the deposited data

How the results depend on the processing

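No paired analysis was possible because the 2 libraries form 1 group. Without either library, the members at TPM 1 or more numbered 28 to 38 (28 in both, 36 in TPM rescaled as below), their median level ran from 10.7 to 44.3 TPM (31.2 as the mean of both) and their share from 0.208% to 0.522% of TPM (0.365%). In TPM rescaled without mitochondrial genes and copies, that median was 64.6 TPM and that share 0.818%, by construction. Of the members, 17 were called higher in library 2 (35.5% of all genes). It was 6 with the GC trend removed (11.2% of all genes) and 25 with no minimum ratio (44.3% of all genes). The 6 called higher in library 1 (24.9% of all genes) became 0 by total counts (4.55% of all genes). They became 14 with no minimum ratio (39.2% of all genes) and 2 with the GC trend removed (10.6% of all genes). The median log2 ratio of 0.59 was 1.50 by total counts, 0.83 by total counts without mitochondrial genes and copies, and 0.27 with the GC trend removed. With that trend removed, 12 members turned sign: Pex5 (-0.64), Pex13 (0.20), Pex2 (0.29), Pex10 (-0.80), Pex3 (0.05), Pex19 (-0.85), Acox3 (-0.05), Ehhadh (0.34), Hao2 (0.73), Abcd2 (0.24), Pxmp2 (-1.12) and Mlycd (-0.33). Of these 12, only Pxmp2 was called after removal. Acox3, Pex3, Abcd2 and Mlycd then had an adjusted p over 0.05 in the exact binomial test. The share of all genes that turned sign was not measured. By total counts 7 members turned sign, through the shift of all genes: Pex7 (0.48), Ehhadh (0.64), Scp2 (0.26), Cat (0.28), Hao2 (0.16), Ddo (0.32) and Acot4 (0.38). DESeq2 size factors and posterior mean counts kept direction and call for all 39. Members with few counts in library 1 (Pex16, Pex6, Acot8, Pex14 and Mlycd) have ratios limited by depth.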

Other observations

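Beyond the members, 100 genes carried the codon set of the classical import signal at their coding end, and 42 of them reached TPM 1 in both libraries. Of the 100, 15 were in the lists of other peroxisome genes and 12 of these reached TPM 1 in both libraries. By the mean of both libraries, the most abundant of these genes was Idh1, the isocitrate dehydrogenase of cytosol and peroxisomes, with 439 TPM in library 2, against 399 TPM in library 1. Nudt19, a peroxisomal hydrolase of coenzyme A, had 302 TPM in library 2, against 393 TPM in library 1. Outside those lists, Acnat2 had 245 TPM in library 2, against 43.5 TPM in library 1, and Eci3 had 169 TPM in library 2, against 70.3 TPM in library 1. These 4 genes were picked after their levels were seen. A match at the coding end is a description and does not place a protein in the organelle.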
